A study of Mus musculus with 54 samples.

Results

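Id1, Id2, Id3, Smad6 and Smad7 were followed in mouse hematopoietic stem cells (HSC) exposed to radiation, to 16,16-dimethyl prostaglandin E2 (dmPGE2, a long-acting form of prostaglandin E2), or to both. These 5 genes were selected on their symbols, as transcripts commonly read as outputs of bone morphogenetic protein (BMP) and TGF-beta signalling, and they were proposed with their levels in these groups already known. They are 5 of the 24421 genes of the count table, and 5 of 5 passed the filter on low counts, which kept 14320 genes. Their differences between treatment groups are therefore given as a description with a standard error (SE) and no p-value, and adjusted p-values appear only for the sexes and for other genes of the pathway.

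The mice were of a C57BL/6 line whose HSC carry a green fluorescent reporter at Fgd5, and the HSC were sorted from bone marrow by surface markers and the reporter. A single injection under the skin, of dmPGE2 or of ethanol vehicle in saline, preceded radiation of 8.53 Gy by 30 min, and cells were collected 1 h or 24 h after it. Each library came from 1 mouse of either sex, and the labels give no age. There were 15 libraries without radiation and with vehicle, 7 without radiation and with dmPGE2 at 1 h, 8 with radiation and vehicle at 1 h, 8 with radiation and dmPGE2 at 1 h, 8 with radiation and vehicle at 24 h, and 8 with radiation and dmPGE2 at 24 h. The labels hold no group of non-irradiated mice with dmPGE2 at 24 h. The vehicle mice without radiation are labelled 1 h for 8 samples and 24 h for 7, but the table's columns do not say which is which, so they form a single baseline that mixes both times.

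BMP and TGF-beta ligands bind pairs of serine/threonine kinase receptors that phosphorylate receptor-regulated SMAD proteins, which join SMAD4 and act on genes in the nucleus. SMAD6 and SMAD7 are the inhibitory SMADs: both are made in response to the pathway and restrain it, SMAD6 mainly on the BMP side and SMAD7 on both sides. ID proteins are helix-loop-helix proteins without a DNA-binding region, and they hold E proteins and related bHLH factors away from DNA. In blood-forming cells ID proteins are known for their part in the balance of lineage choice, proliferation and quiescence. Genes of both families can also respond to signals outside this pathway, and which signals act on the 5 genes here was not tested.

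In the mm10 coordinates of the count table, Id1 lies at chr2:152736251-152737410 on the plus strand, Id2 at chr12:25093799-25096092 on the minus strand, Id3 at chr4:136143822-136145392 on the plus strand and Smad6 at chr9:63953076-64022059 on the minus strand. Counts cover all exons of a gene, which come to 934 bases for Id1, 1272 for Id2, 953 for Id3, 2971 for Smad6 and 4441 for Smad7, and 0 genes of the table shared exon bases with any of them. The RefSeq table of promoters (build GRCm38.p6) had no single entry for Id1, and the promoter of Smad7 is not reported here. For the other 3 of the 5 genes, Id2, Id3 and Smad6, 1 entry each was used. The 250 bases before the start of each are printed because Id2 and Id3 are classical SMAD-responsive genes, and because Id2 and Smad6 lay on opposite sides of baseline after radiation. Capitals mark matches to GGCGCC (a GC-rich element bound by SMAD1 and SMAD5), to CAGAC or its reverse complement GTCTG (the SMAD box), and to TGACG or CGTCA (part of the cAMP response element).

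Id2, minus strand, chr12:25096093-25096342: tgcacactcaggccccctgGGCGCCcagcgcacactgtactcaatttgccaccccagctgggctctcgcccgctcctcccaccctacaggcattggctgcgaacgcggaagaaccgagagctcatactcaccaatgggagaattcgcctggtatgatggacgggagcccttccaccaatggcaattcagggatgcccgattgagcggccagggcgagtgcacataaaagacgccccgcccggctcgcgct
Id3, plus strand, chr4:136143572-136143821: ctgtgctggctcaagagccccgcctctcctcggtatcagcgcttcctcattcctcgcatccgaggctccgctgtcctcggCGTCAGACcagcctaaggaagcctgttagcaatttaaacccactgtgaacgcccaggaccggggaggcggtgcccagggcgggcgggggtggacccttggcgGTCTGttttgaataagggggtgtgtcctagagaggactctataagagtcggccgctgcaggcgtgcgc
Smad6, minus strand, chr9:64022060-64022309: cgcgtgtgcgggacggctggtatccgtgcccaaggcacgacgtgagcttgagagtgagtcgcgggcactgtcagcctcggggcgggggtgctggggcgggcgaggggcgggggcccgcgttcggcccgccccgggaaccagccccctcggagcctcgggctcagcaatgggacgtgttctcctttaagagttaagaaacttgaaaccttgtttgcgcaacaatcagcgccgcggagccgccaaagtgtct

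Both strands were searched in these windows. Id2 held GGCGCC once, 231 to 226 bases before its start, and 9.59% of the 32851 promoters of the table hold that motif in a window of the same length. Id3 held the SMAD box at 167 to 163 and at 68 to 64 bases before its start, and 42.2% of all promoters hold it at least once. The upstream SMAD box of Id3 overlapped a CGTCA at 170 to 166 bases, a motif that 17.8% of promoters hold. Neither GTCTAGAC, the palindromic SMAD element (0.167% of promoters), nor TGACGTCA, the full cAMP response element (1.55%), was found in these 3 windows, and the Smad6 window held none of the motifs searched. A match shows only that the letters are there.

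Total counts ran from 15049364 to 26217041 per library, and HSC markers (10 of 10 genes detected) were read in every library. Their sum, in CPM (read counts scaled to a common library total), was 4102 to 6011 at baseline and 3686 to 5991 in the groups of 1 h, but 2836 to 3814 with radiation and vehicle at 24 h, below every baseline library, and 3376 to 5260 with radiation and dmPGE2 at 24 h. Libraries 5, 6 and 7 of the irradiated dmPGE2 group at 24 h, all from males, stood apart on the second principal component of all genes, so results that rest on them are given with and without them. Library 1 of that group, from a female, held stromal markers at a summed 397 CPM, against 15.5 to 92.7 CPM in the other 15 libraries of 24 h. Endothelial markers, which matter here because vessels express Id1, Id3, Smad6 and Smad7, summed to between 42.9 and 98.2 CPM in all libraries. Of these markers Cdh5 had group medians from 0 to 0.318 CPM, Kdr from 3.53 to 9.82 CPM and Emcn from 27.9 to 42.6 CPM. Sox18 had medians of 21.0 CPM at baseline and 6.67 CPM with dmPGE2 and no radiation. After radiation with vehicle and with dmPGE2 Sox18 had 3.23 and 6.36 CPM at 1 h, and 23.3 and 15.7 CPM at 24 h. The other endothelial markers had group medians of at most 5.41 CPM. The part of these markers' cells in the levels of the 5 genes was not tested.

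In baseline HSC, compared per kilobase of exon (FPKM), Id2 stood highest at 14.6, Smad6 (4.43), Smad7 (4.35) and Id1 (3.74) lay close together, and Id3 was lowest at 0.626. With vehicle 24 h after radiation the order was Id2 (31.4 FPKM), Id1 (24.9), Smad6 (2.5), Smad7 (1.74) and Id3 (1.29). All further levels are CPM, which compare a gene with itself across groups.

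**Figure D1:**
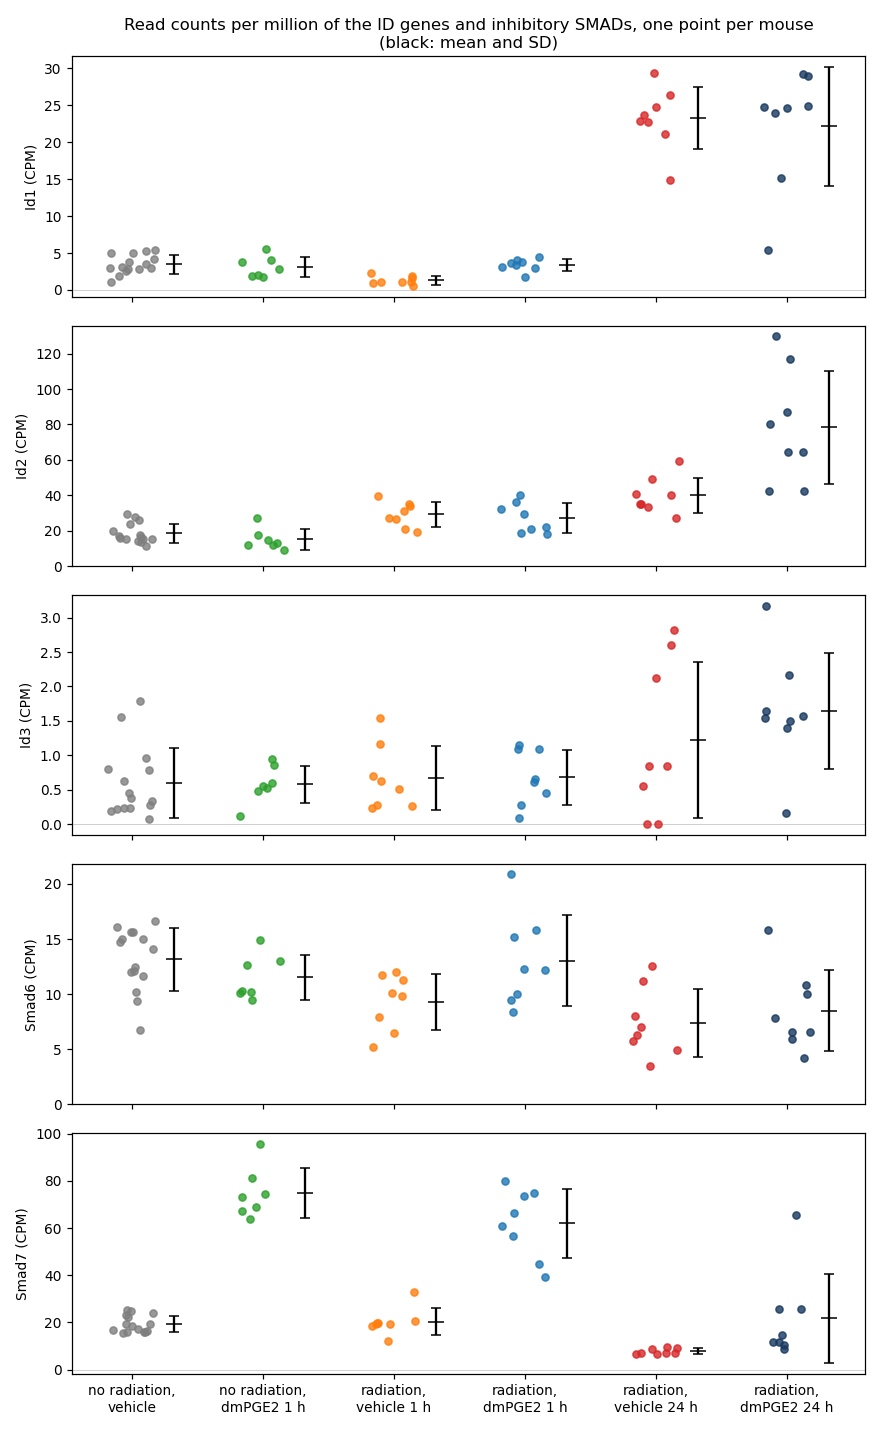
Level of each gene in CPM (vertical axes, linear, a scale for each gene) in the 6 groups (horizontal axis), with 1 point per library and the mean and SD in black. Smad7 stands at 39.1 to 95.7 CPM in the dmPGE2 groups of 1 h and at 6.45 to 9.58 CPM with radiation and vehicle at 24 h, and Id1 stands at 14.9 to 29.4 CPM in the latter.

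At 1 h, the inhibitory SMAD gene that differed with dmPGE2 was Smad7. Without radiation Smad7 ran from 15.5 through a median of 18.5 to 25.2 CPM in the 15 vehicle libraries, and from 63.7 through 73.3 to 95.7 CPM in the 7 dmPGE2 libraries. The groups did not overlap, with 63.7 CPM in the lowest dmPGE2 library and 25.2 CPM in the highest vehicle library. The mean was 19.3 ± 3.57 CPM (SD, n = 15) with vehicle and 74.9 ± 10.7 CPM (SD, n = 7) with dmPGE2, a 3.88-fold difference (log2 fold change 1.95, SE 0.20). In bulk RNA, a change in each cell and a change in the number of cells that express a gene cannot be told apart, here and for all levels that follow. In irradiated mice the same difference was seen at 1 h, with 12.3, 19.5 and 33.1 CPM as the lowest, median and highest of 8 vehicle libraries, and 39.1, 63.6 and 80 CPM with dmPGE2. Again 8 of 8 dmPGE2 libraries lay above 8 of 8 vehicle libraries (log2 fold change 1.61, SE 0.24, 3.05-fold). Radiation itself left Smad7 within 0.07 (SE 0.20) of baseline under vehicle at 1 h, and its level with dmPGE2 differed by -0.27 (SE 0.24) between irradiated and non-irradiated mice. The dmPGE2 difference of Smad7 with radiation minus that without was -0.35 (SE 0.31).

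Smad6, the other inhibitory SMAD gene, did not share this pattern. It ran from 6.76 through 14.1 to 16.7 CPM at baseline and from 9.46 through 10.3 to 14.9 CPM with dmPGE2 and no radiation, so that the 7 dmPGE2 values lay inside the baseline range (log2 fold change -0.19, SE 0.20). With radiation and vehicle at 1 h it ran from 5.20 through 9.98 to 12 CPM, and with radiation and dmPGE2 from 8.39 through 12.2 to 20.9 CPM. The last of these groups overlapped the vehicle group, with 5 of its 8 libraries above all vehicle libraries (log2 fold change 0.48, SE 0.22).

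Id1 at 1 h was low after radiation with vehicle and at its baseline level after radiation with dmPGE2. It ran from 1.05 through 3.12 to 5.46 CPM at baseline and from 0.535 through 1.10 to 2.31 CPM with radiation and vehicle. These ranges overlapped, with 3 of 8 irradiated libraries below all 15 of baseline, and the mean was 2.66-fold lower (log2 fold change -1.41, SE 0.26). With radiation and dmPGE2, Id1 ran from 1.78 through 3.53 to 4.41 CPM, and 7 of 8 libraries lay above all vehicle libraries (log2 fold change 1.37, SE 0.28, 2.59-fold). The counts behind these values were small, from 11 to 61 reads per library with radiation and vehicle and from 44 to 96 with radiation and dmPGE2. Without radiation dmPGE2 did not separate Id1, which ran from 1.82 through 2.87 to 5.49 CPM (log2 fold change -0.17, SE 0.25). The dmPGE2 difference with radiation minus that without was 1.54 (SE 0.38) for Id1.

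Id2 at 1 h was higher with radiation and was close to its vehicle level with dmPGE2. It ran from 11.4 through 16.2 to 29.2 CPM at baseline, and from 19.2 through 29.0 to 39.6 CPM with radiation and vehicle. The ranges overlapped, with 4 of 8 irradiated libraries above all of baseline (log2 fold change 0.65, SE 0.19, 1.57-fold). With dmPGE2 it ran from 8.97 through 13 to 27.4 CPM without radiation and from 18 through 25.6 to 40.2 CPM with it. The radiation difference under dmPGE2 was 0.85 (SE 0.23), and the dmPGE2 difference was -0.29 (SE 0.20) without radiation and -0.10 (SE 0.22) with it.

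Id3 was barely detected at 1 h. It ran from 0.0826 to 1.79 CPM at baseline, which is 2 to 47 reads per library, and the 3 other groups of 1 h lay between 0.0966 and 1.54 CPM. The ranges overlapped throughout, and the SE of its log2 differences at 1 h was between 0.56 and 0.87. It was called in 0 of the comparisons of 1 h.

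Read against all genes, calls by the edgeR quasi-likelihood test at a Benjamini-Hochberg adjusted p below 0.05 covered 1 higher (Id2) and 1 lower (Id1) of the 5 genes after radiation with vehicle at 1 h, where 16% of all genes tested were called. With dmPGE2 and no radiation 1 of 5 was called (Smad7, higher), beside 11.1% of all genes, and with dmPGE2 in irradiated HSC 2 of 5 were (Id1 and Smad7, both higher), beside 14.8%. Groups did not overlap for 1 of 5 genes (Smad7) under dmPGE2 with and without radiation, beside 4.39% and 2.63% of all genes. They overlapped for 5 of 5 genes after radiation, where 3.17% of all genes did not overlap with vehicle and 0.391% with dmPGE2. Radiation under dmPGE2 gave 0 of 5 calls (0.377% of all genes), with Id2 (0.85, SE 0.23) close to the threshold: it was called by DESeq2 and in fits without libraries 5 to 7 of the dmPGE2 group at 24 h. Smad6 after radiation with vehicle (-0.50, SE 0.20) was likewise called lower with upper quartile scaling (-0.56, SE 0.20) and with only the compared groups in the fit (-0.50, SE 0.16). Id2 after radiation with vehicle lost its call with the 7 baseline columns of higher sample-sheet number alone (0.60, SE 0.23). Finally, the difference between both dmPGE2 responses gave 1 of 5 (Id1, 2.97% of all genes). Since the genes were proposed from these contrasts, nothing is read from those shares.

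**Figure D2:**
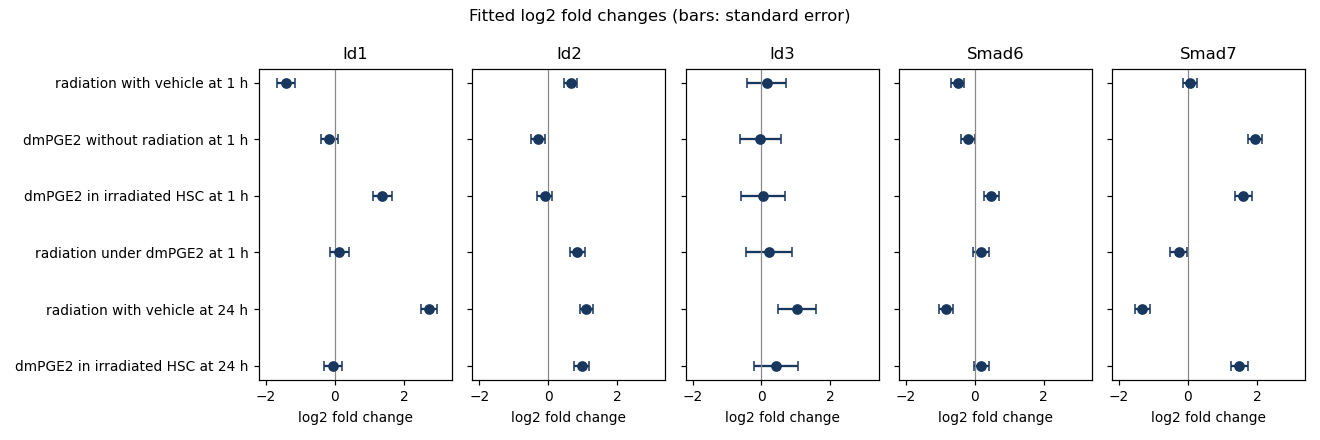
Log2 fold change of each gene (horizontal axes) in 6 comparisons (vertical axis), with bars for the SE of the fit. Smad7 lies at 1.95 and 1.61 for dmPGE2 at 1 h and at -1.32 for radiation with vehicle at 24 h, and Id1 runs from -1.41 at 1 h to 2.73 at 24 h after radiation.

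By 24 h after radiation with vehicle, Id1 and Id2 were higher than at baseline and Smad6 and Smad7 were lower, while Id3 was not called. Id1 ran from 14.9 through 23.3 to 29.4 CPM, entirely above the baseline range that ended at 5.46 CPM. Its mean was 23.2 ± 4.21 CPM (SD, n = 8) against 3.50 ± 1.28 CPM (SD, n = 15), a 6.63-fold difference (log2 fold change 2.73, SE 0.23). Against irradiated vehicle mice of 1 h the difference was 17.6-fold (log2 fold change 4.14, SE 0.30), again with no overlap.

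Id2 ran from 27.3 through 37.5 to 59.2 CPM at 24 h with vehicle, and 7 of 8 libraries lay above all baseline libraries (log2 fold change 1.11, SE 0.18, 2.15-fold). Against 1 h it differed by 0.45 (SE 0.22), with overlapping ranges. Id3 was read in 6 of 8 of these libraries, at 0.563 to 2.82 CPM, and had 0 reads in libraries 7 and 8. Its ranges at baseline and 24 h overlapped (log2 fold change 1.03, SE 0.54).

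Smad7 ran from 6.45 through 7.05 to 9.58 CPM at 24 h with vehicle, entirely below the baseline minimum of 15.5 CPM (log2 fold change -1.32, SE 0.22, 2.5-fold lower). It was also below every irradiated vehicle library of 1 h (log2 fold change -1.39, SE 0.24). Smad6 ran from 3.47 through 6.69 to 12.6 CPM and overlapped baseline, with 4 of 8 libraries below all 15 baseline libraries (log2 fold change -0.82, SE 0.20).

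Among the 5 genes 2 were called higher (Id1 and Id2) and 2 lower (Smad6 and Smad7) in this comparison, where 49.7% of all genes were called. Non-overlap covered 2 of 5 genes, beside 10.6% of all genes. From 1 h to 24 h with radiation and vehicle 1 was called higher (Id1) and 1 lower (Smad7), beside 50.9% of all genes, and both did not overlap, beside 19.5%. Since the baseline mixes both times, its columns were also used in 2 sets that their sample-sheet numbers give: with either set alone the 24 h difference of Id1 was 2.66 or 2.81, that of Smad7 was -1.42 or -1.19, and that of Id1 at 1 h was -1.48 or -1.34. Every irradiated library of 24 h has a tag in its column name that no library of baseline or of 1 h has. Time and tag therefore cannot be told apart where 24 h is compared with baseline or with 1 h, with either set, here and below. Megakaryocyte markers (7 of 7 detected) had a summed median of 862 CPM with radiation and vehicle at 24 h and 369 CPM at baseline, while neutrophil markers (12 of 12) had 104 and 561 CPM. HSC markers had 3280 CPM beside 4915 CPM at baseline, with no overlap between libraries, and T and NK cell markers (7 of 8 in the table) had 126 and 74.6 CPM. Mast cell and basophil markers (5 of 5) had 4.36 CPM, from 0.866 to 55.4, beside 170 CPM, from 2.71 to 580, at baseline. The part of these shifts in the levels of Id1, Id2, Smad6 and Smad7 was not tested.

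At 24 h, dmPGE2 given before radiation went with higher Smad7 and Id2 and with an Id1 level near that of vehicle. Smad7 stood at 11.6, 11.9, 8.90 and 14.6 CPM in the 4 female dmPGE2 libraries and at 65.5, 25.7, 25.9 and 10.2 CPM in the 4 male ones. All but 1 lay above the vehicle maximum of 9.58 CPM, and libraries 5, 6 and 7 were far above the rest. The log2 fold change was 1.49 (SE 0.24) over all 8 libraries, 1.00 without library 5 alone and 0.56 (SE 0.17) without libraries 5 to 7. The mean was 39.0 ± 22.9 CPM (SD, n = 3) in those libraries and 11.4 ± 2.11 CPM (SD, n = 5) in the rest, beside 7.74 ± 1.29 CPM (SD, n = 8) with vehicle.

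Id2 stood at 42.2, 64.4, 80.3 and 64.2 CPM in the female dmPGE2 libraries and at 130, 86.8, 117 and 42.7 CPM in the male ones. Of these 6 of 8 exceeded the vehicle maximum of 59.2 CPM, and the 3 highest were again libraries 5 to 7. The log2 fold change was 0.97 (SE 0.22), and 0.56 (SE 0.22) without those 3 libraries. Leaving out library 3 as well gave 0.43 (SE 0.24) for Id2 and 0.65 (SE 0.18) for Smad7.

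Id1 stood at 24.6, 24.0, 24.8 and 28.9 CPM in the female dmPGE2 libraries and at 5.45, 29.3, 15.2 and 24.9 CPM in the male ones. Of these, 7 of 8 lay inside the vehicle range and library 5, which held the most Smad7 and Id2, held the least Id1. The log2 fold change was -0.07 (SE 0.26), and 0.13 (SE 0.27) without libraries 5 to 7.

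Id3 ran from 0.163 through 1.56 to 3.17 CPM with dmPGE2, overlapping the vehicle values (log2 fold change 0.43, SE 0.63). Smad6 ran from 4.21 through 7.23 to 15.9 CPM, also overlapping vehicle (log2 fold change 0.19, SE 0.22). Calls covered 2 of 5 genes, both higher (Id2 and Smad7), beside 23.9% of all genes, and 0 of 5 did not overlap, beside 1.96%. Without libraries 5 to 7 the call of Id2 was lost and that of Smad7 was kept, so that 1 of 5 was called, beside 7.72% of all genes. In females alone neither was called (0.72, SE 0.25, for Id2 and 0.69, SE 0.27, for Smad7), beside 2.68% of all genes. In males alone, who include libraries 5 to 7, both were called higher (1.17, SE 0.29, for Id2 and 1.95, SE 0.46, for Smad7), beside 7.31%.

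The markers of other cells also differed here. The median sum of the megakaryocyte markers was 470 CPM under dmPGE2, beside 862 CPM under vehicle at 24 h, and 5 of 7 were called lower. Neutrophil markers summed to 488 and 104 CPM, with 4 of 12 called higher, and stromal markers to 70.8 and 41.2 CPM, with 4 of 8 called higher. Of the monocyte markers 3 of 7 and of the HSC markers 3 of 10 were called higher. Over all genes 12.4% were called higher and 11.5% lower. These calls are over all 8 dmPGE2 libraries. Megakaryocyte markers summed to 635, 276 and 236 CPM in libraries 5, 6 and 7, and the last 2 values were the lowest of the group. HSC markers summed to 4383, 5260 and 5115 CPM in libraries 5, 6 and 7, the highest 3 of the group. Endothelial markers summed to 76.2, 88.9 and 98.2 CPM in these libraries, also the highest 3 of the group. With vehicle at 24 h they summed to between 48.8 and 78.7 CPM. Over all 8 dmPGE2 libraries 2 of 9 endothelial markers tested were called higher and 1 lower. The part of these differences in the levels of Id2 and Smad7 was not tested.

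**Figure D3:**
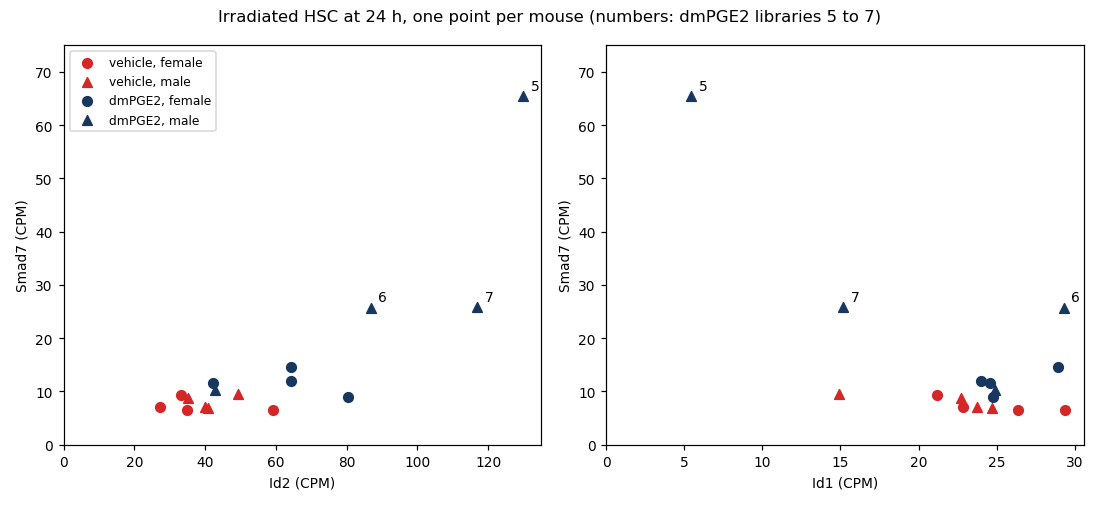
Smad7 against Id2 (left) and against Id1 (right) in the 16 libraries of 24 h, all axes in CPM, with colour for treatment and shape for sex. Libraries 5, 6 and 7 of dmPGE2 stand at 65.5, 25.7 and 25.9 CPM of Smad7, above 14.6 CPM in the highest of the other libraries, and library 5 stands lowest in Id1 at 5.45 CPM.

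The dmPGE2 difference at 24 h minus that at 1 h in irradiated HSC was -1.44 (SE 0.38) for Id1, 1.08 (SE 0.31) for Id2, -0.29 (SE 0.31) for Smad6 and -0.12 (SE 0.33) for Smad7. Of the 5 genes 1 was called higher (Id2) and 1 lower (Id1), beside 25.4% of all genes. For Smad7 the value rests on the male libraries that stood apart: without libraries 5 to 7 it was -1.05 (SE 0.22) and was called, and for Id2 it was then 0.66 (SE 0.30) and no longer called. In that fit 0 of 5 genes were called higher and 2 lower (Id1 and Smad7), beside 16.5% of all genes.

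The sexes, which had no part in the choice of the genes, could be compared at 24 h, where the columns name them for 4 females and 4 males in each treatment. Averaged over both treatments, Smad7 in females minus males differed by -0.80 (SE 0.31, edgeR adjusted p = 0.248), Id1 by 0.33 (SE 0.23, edgeR adjusted p = 0.516) and Id2 by -0.34 (SE 0.21, edgeR adjusted p = 0.446). Smad6 differed by -0.50 (SE 0.29, edgeR adjusted p = 0.407) and Id3 by 1.00 (SE 0.85, edgeR adjusted p = 0.602). Thus 0 of 5 genes passed, beside 0.0948% of 13714 genes tested. Without libraries 5 to 7, all male, Smad7 differed by -0.05 (SE 0.24, edgeR adjusted p = 0.991) and Id2 by 0.07 (SE 0.21, edgeR adjusted p = 0.989), so that the direction of Id2 turned and little of the Smad7 difference was left. With all libraries of 24 h the same test took 2110 genes at an unadjusted p below 0.05. DESeq2 called 204 genes and 0 of the 4 members to which it gave an adjusted p-value, and it gave none to Id3. With dmPGE2 Smad7 averaged 11.7 ± 2.31 CPM (SD, n = 4) in females and 31.8 ± 23.6 CPM (SD, n = 4) in males, beside 7.37 ± 1.35 and 8.11 ± 1.31 CPM (SD, n = 4 each) with vehicle. The difference of the dmPGE2 response between the sexes was -1.29 (SE 0.54, edgeR adjusted p = 0.359) for Smad7, and 0 of the 13714 genes passed that test. Without those 3 libraries only library 8 was left of the males with dmPGE2. The direction for Smad7 then turned, to 0.33, and that of Id2 turned from -0.47 to 0.65. For males with dmPGE2 these values rest on that library. Over all libraries the test took 1623 genes at an unadjusted p below 0.05, and DESeq2 called 32.

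Across the 54 libraries the 5 genes did not move as a unit. The log2 CPM of Id1 and Id2 correlated at a Pearson r of 0.56 and those of Smad6 and Smad7 at 0.41, while Id1 and Smad7 correlated at -0.53. These values describe libraries that share 6 treatment groups and a scaling to depth. The most similar genes named next depend on the measure: by Spearman correlation 0 of the 3 for Id1, 1 of 3 for Id2 and for Smad7, 2 of 3 for Smad6 and 3 of 3 for Id3 were again among the top 3, and by correlation of the 6 group means 0 of 3 were for each gene. The transcripts most like Smad7 over the same libraries, among 10761 genes, were Pde4b (r = 0.92), a cAMP phosphodiesterase, Ifngr1 (0.92), a chain of the interferon gamma receptor, and Tiparp (0.91), an ADP-ribosyltransferase. Pde4b stood at 214 ± 41.1 CPM at baseline, 745 ± 91.8 CPM with dmPGE2 and no radiation, 767 ± 131 CPM with dmPGE2 and radiation at 1 h, and 126 ± 12.4 CPM with radiation and vehicle at 24 h.

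Those most like Id1 were Fam216a (0.91), Ptp4a3 (0.90), a protein tyrosine phosphatase, and S100a6 (0.90), a calcium-binding protein. Ptp4a3 stood at 243 ± 32.9 CPM at baseline, 218 ± 21.3 CPM with radiation and vehicle at 1 h and 985 ± 43.3 CPM at 24 h. Those most like Id2 were Cd53 (0.85), a tetraspanin of white blood cells, Sat1 (0.83), an enzyme of polyamine breakdown, and Fabp4 (0.83), a fatty acid binding protein. Cd53 stood at 128 ± 19.4 CPM with vehicle and 574 ± 517 CPM with dmPGE2 at 24 h, so its libraries were also widely spread. Those most like Smad6 were Cyp26b1 (0.79), which breaks down retinoic acid, Cdkn1c (0.73), a cell cycle inhibitor, and Pde1b (0.72). No gene came above 0.59 with Id3, whose counts are sparse.

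The rest of the pathway was read from lists of 73 genes by role, of which 61 passed the filter. Among the ligands, receptors and SMADs 12.5% of 24 genes were called at 1 h after radiation with vehicle, beside 16% of all genes, and 4.17% with dmPGE2 and no radiation, beside 11.1%. After radiation with vehicle 0 of 5 receptor-regulated and common SMADs, 1 of 11 receptors (lower) and 2 of 8 ligands (higher) were called, and with dmPGE2 and no radiation 0 SMADs and 0 receptors were. The SMAD log2 fold changes lay between -0.08 and 0.10 after radiation, and between -0.39 and 0.14 with dmPGE2 and no radiation. With dmPGE2 in irradiated HSC, Tgfbr1, the type I TGF-beta receptor, fell from 73.6 ± 10.8 to 46.2 ± 12.3 CPM (log2 fold change -0.67, SE 0.21, edgeR adjusted p = 0.0188). The activin receptor gene Acvr2a fell with it (-0.66, SE 0.21, edgeR adjusted p = 0.0274), and of the SMADs only Smad5 was called in that comparison (-0.56, edgeR adjusted p = 0.00194). These were the 3 called of the 24 ligands, receptors and SMADs (12.5%), beside 14.8% of all genes.

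Among the feedback and corepressor genes, Skil, whose protein SnoN represses SMAD targets, rose from 23.2 ± 6.71 CPM at baseline to 104 ± 34.8 CPM with radiation and vehicle at 1 h (log2 fold change 2.16, SE 0.21, edgeR adjusted p = 8.7e-12). With dmPGE2 alone it stood at 160 ± 17 CPM (2.78, SE 0.22, edgeR adjusted p = 1.1e-14) and with both at 205 ± 44.2 CPM, so that the joint level fell short of the sum on the log scale (difference of responses -1.80, SE 0.34, edgeR adjusted p = 0.00027). Skil was also the 1 gene of the 10 pathway and member genes compared that differed between both sets of baseline columns, at 27.6 ± 5.65 and 18.1 ± 3.43 CPM. Over all genes, edgeR called 581 of 13241 between these sets at an adjusted p below 0.05, so the pooled baseline is not uniform. Bambi, a decoy receptor, rose with dmPGE2 in irradiated HSC from 17.6 ± 2.37 to 39.2 ± 4.91 CPM (1.15, SE 0.17, edgeR adjusted p = 5.1e-07), alongside Smad7. The corepressors Tgif1 and Tgif2 went the other way: Tgif2 rose with radiation from 26.8 ± 4.23 to 98.8 ± 10.5 CPM (1.88, SE 0.10, edgeR adjusted p = 9.1e-23) and was lower with dmPGE2, at 60.4 ± 10.2 CPM (-0.71, SE 0.12, edgeR adjusted p = 7.1e-06). Tgif1 rose with radiation from 63.9 to 112 CPM (0.81, SE 0.11, edgeR adjusted p = 2.0e-08) and fell with dmPGE2 in irradiated HSC to 61.5 CPM (-0.87, SE 0.12, edgeR adjusted p = 3.1e-07).

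In all, modulators of the pathway gave 6 higher, 0 lower and 13 uncalled genes of 19 with radiation and vehicle at 1 h (31.6% called, beside 16% of all genes), and 4 higher, 5 lower and 10 uncalled with dmPGE2 in irradiated HSC (47.4%, beside 14.8%). The lists were drawn up with earlier results of these data known, and no difference between them was tested. Over the 61 genes the counts were 12 higher and 3 lower with radiation (median log2 fold change 0.16, beside 0.00 over all genes) and 8 higher and 9 lower with dmPGE2 in irradiated HSC (-0.01, beside 0.01). With dmPGE2 and no radiation they were 12 higher and 2 lower (0.11, beside 0.00). The listed target genes included Cdkn1a, which p53 also drives and which rose from 8.30 ± 3.87 to 657 ± 108 CPM with radiation at 1 h (6.31, SE 0.17, edgeR adjusted p = 5.5e-36), and Junb, an immediate early gene (3.06, SE 0.27, edgeR adjusted p = 4.5e-13).

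**Figure D4:**
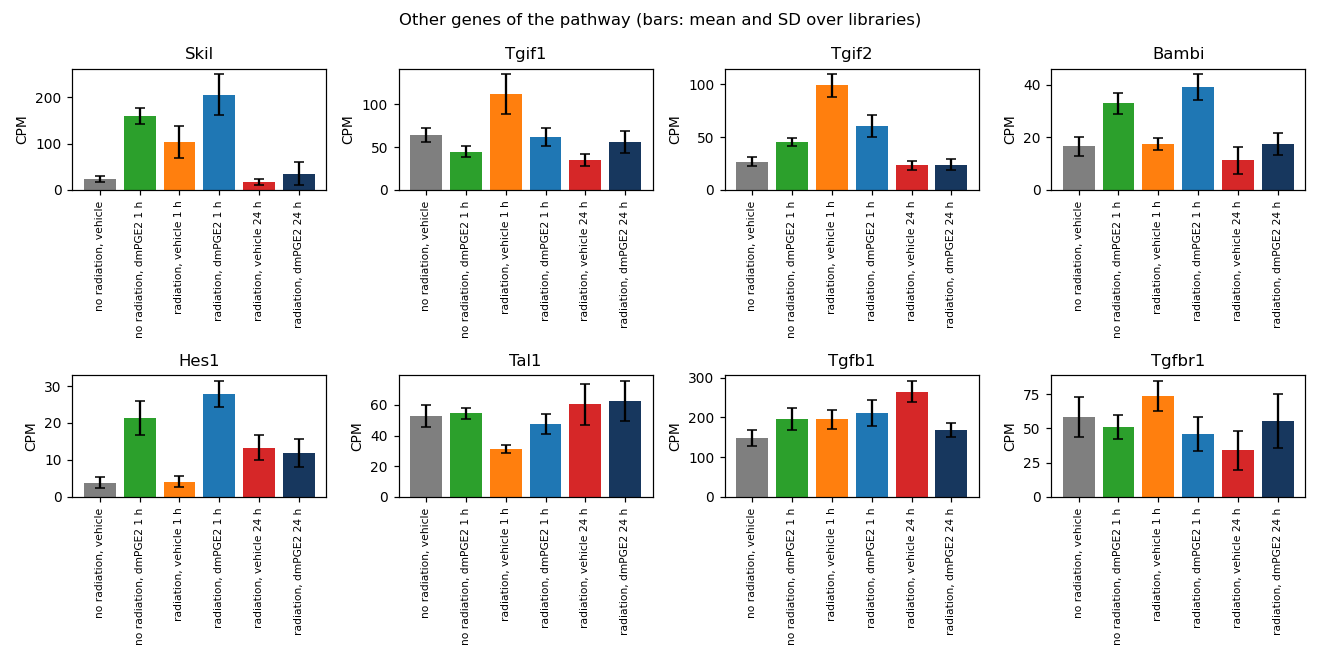
Mean level of 8 other genes of the pathway in CPM (vertical axes, from 0) in the 6 groups (horizontal axes), with the SD over libraries as bars. Skil stands at 160 and 205 CPM in the dmPGE2 groups of 1 h, Tgif2 is highest at 98.8 CPM with radiation and vehicle at 1 h, and Tgfb1 is highest at 265 CPM with radiation and vehicle at 24 h.

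The partners of the ID proteins were counted as well. The E protein genes Tcf3, Tcf4 and Tcf12 gave no call at 1 h, with log2 fold changes from -0.04 to 0.06 after radiation and from 0.09 to 0.20 with dmPGE2 in irradiated HSC. The bHLH genes of early blood cells did differ: after radiation with vehicle Tal1 fell from 53 ± 7.25 to 31.4 ± 2.42 CPM (-0.76, SE 0.10, edgeR adjusted p = 2.9e-08) and Lyl1 from 26.8 ± 5.55 to 14.2 ± 1.75 CPM (-0.91, SE 0.16, edgeR adjusted p = 1.3e-05). Tal1 stood at 47.6 ± 6.63 CPM with radiation and dmPGE2 (0.60 against vehicle, SE 0.11, edgeR adjusted p = 4.9e-05). Hes1, a bHLH repressor and Notch target, rose with dmPGE2 from 3.84 ± 1.52 to 21.3 ± 4.61 CPM without radiation (2.47, SE 0.19, edgeR adjusted p = 4.8e-15) and from 4.11 ± 1.55 to 27.8 ± 3.45 CPM with it (2.76, SE 0.24, edgeR adjusted p = 9.2e-14).

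At 24 h after radiation with vehicle 10 genes of the lists were higher and 22 lower of 61 (median -0.29, beside -0.06 over all genes). These 52.5% stand beside 49.7% of all genes called, with 23.3% of all genes higher and 26.5% lower. Of 11 receptors 8 fell and 1 rose, among them Acvr2b (-0.90, SE 0.20, edgeR adjusted p = 0.00022). Of 5 SMADs 3 fell: Smad3 by 0.79, Smad5 by 0.63 and Smad1 by 0.48 on the log2 scale (edgeR adjusted p = 4.3e-08, 2.1e-05 and 0.00024). Tgfb1, the main TGF-beta ligand of bone marrow, rose from 148 ± 21.1 to 265 ± 26.5 CPM (0.83, SE 0.08, edgeR adjusted p = 1.5e-12). Tcf3, an E protein gene, fell by 0.43 (edgeR adjusted p = 0.00026), and Hes1 rose to 13.3 ± 3.39 CPM (1.79, SE 0.19, edgeR adjusted p = 2.2e-11).

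From 1 h to 24 h with radiation and vehicle, 30 of the 61 genes fell and 4 rose (55.7% called, beside 50.9% of all genes; median -0.52, beside -0.06), 13 of the 19 modulators among those that fell. Skil fell to 16.7 CPM (-2.63, SE 0.27, edgeR adjusted p = 1.1e-11) and Tgif2 to 23.3 CPM (-2.08, SE 0.12, edgeR adjusted p = 1.3e-20), in the same interval in which Smad7 was lower. Tal1 rose to 60.4 CPM (0.94, SE 0.11, edgeR adjusted p = 4.6e-10).

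With dmPGE2 at 24 h 16 of the 61 genes were higher and 2 lower (29.5% called, beside 23.9% of all genes; median 0.25, beside 0.03). Without libraries 5 to 7 the count of called list genes fell to 7 of 61, and the 4 receptors called higher fell to 0. The share of all genes called fell likewise, from 23.9% to 7.72%. Tgfb1 was lower with dmPGE2 at 169 ± 17.3 CPM (-0.65, SE 0.10, edgeR adjusted p = 1.9e-06) and stayed called without those libraries (-0.61, edgeR adjusted p = 0.00024). Tgfbi, a TGF-beta-induced matrix protein gene that monocytes also express, rose from 44.8 ± 5.76 to 152 ± 63.8 CPM (1.76, SE 0.25, edgeR adjusted p = 9.6e-07), and by 1.56 without them (edgeR adjusted p = 7.88e-05). The median sum of the monocyte markers (7 of 7 detected) was 96.3 CPM under dmPGE2 and 43.9 CPM under vehicle, and their part in the Tgfbi difference was not tested. Skil (1.07, SE 0.26, edgeR adjusted p = 0.0019) and the BMP receptor gene Acvr1 (1.03, SE 0.31, edgeR adjusted p = 0.010) were called over all 8 libraries and not without libraries 5 to 7 (edgeR adjusted p = 0.15 and 0.11). The list genes Junb, Tsc22d1 and Usp15 likewise lost their call without those libraries (edgeR adjusted p = 0.50, 0.17 and 0.12).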

How the data were processed

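RNA was read as full-length cDNA libraries (SMART-Seq v4, Nextera XT, no molecular tags and no strand), per the labels' protocols. The deposited table holds whole read counts for each gene and library. The submitters' processing notes name STAR 2.5.2b, the build mm10 and featureCounts (Subread 1.5.1), while annotation and multi-mapping settings were not given in these sources. Columns were assigned to groups by name, and libraries are numbered in table order within a group. There were 0 unused library columns, and 4 rows had repeated symbols.

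Counts of 54 libraries were fitted with edgeR 4.0.16 in R 4.3.3: filterByExpr (count minimum 10), TMM scaling, 6 group means, robust quasi-likelihood F test (common dispersion 0.121, 48 residual degrees of freedom), Benjamini-Hochberg adjustment over all genes tested. The SE is the absolute log2 fold change over the square root of F. CPM use TMM factors, except marker sums (total count only). Sexes were fitted on the 16 libraries of 24 h. The steps were tested on simulated data. DESeq2 1.42.0, other scalings, no filter, fewer groups, left-out libraries, baseline sets and a replicate block were alternatives. Leaving out single libraries and the direct test between baseline sets were added after the data were seen. Members, lists, tests and the naming rule were chosen with earlier results of these data known. That rule picks the 5 genes everywhere, per comparison the 5 called list genes furthest up and the 5 furthest down by log2 fold change, at a mean log2 CPM (prior count 3) of at least 2, the SMAD and E protein genes, and the 3 genes most correlated with each of the 5. Not every list gene that it picked is printed. Receptor, ligand and other list genes are given by count. Each p-value of the main fit sets a difference between groups against the spread between mice within groups, without regard to the tag in the column names. No library pair was identical (highest correlation 0.983).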

Additional observations from a re-analysis of the deposited data

Results flagged for a closer look

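Of 25 sets of values tested (5 genes in 5 groups of 7 or 8 libraries), 4 held a lowest value far from the next by Dixon's criterion, which flags about 1 in 20 groups by chance. Id1 stood at 1.78 CPM in library 3 of the irradiated dmPGE2 group at 1 h, where the next value was 3.03 CPM. It stood at 5.45 CPM in library 5 of the irradiated dmPGE2 group at 24 h, where the next was 15.2 CPM. Id3 stood at 0.163 CPM in the same library 5, where the next was 1.40 CPM. Id3 also stood at 0.127 CPM (3 reads) in library 7 of the non-irradiated dmPGE2 group, where the next was 0.478 CPM. Library 5 of 24 h is the one that held the most Smad7 and Id2.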

How the results depend on the processing

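Of 475 alternative values of the 5 genes 468 moved by less than the SD between libraries and 7 by more, with 0 changes of direction among called values. That SD is of single libraries in a group, on the log2 scale 0.20 to 0.96 for Smad7 and 0.67 to 1.79 for Id3. It is a wide limit for a difference between group means, so a move below it does not show that a value is stable. The 7 belong to dmPGE2 at 24 h. There Smad7 was 0.56 without libraries 5 to 7, 0.65 without 3 and 5 to 7, and 0.69 in females alone (1.95 in males), and Id2 0.43 without 3 and 5 to 7. The response of 24 h minus 1 h became -1.05 and -0.97 for Smad7 in these 2 settings, and 0.52 for Id2 in the second. The replicate block changed 3 calls of the 5 genes in 30, all at 1 h: Id2 for radiation under dmPGE2 (0.86, SE 0.17) and Smad6 for dmPGE2 in irradiated HSC (0.47, SE 0.16) were called higher and Smad6 after radiation (-0.50, SE 0.14) lower. Leaving out 1 library moved no called value by over 1.5 times. Of 589 alternative values of named pathway genes 30 lost the call and 0 reversed.

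Counts of called genes moved more. Libraries of the same tag in the column names were compared by their deviations from group means. At 1 h 6 of 7, 5 of 7 and 7 of 8 same-tag pairs correlated above 0.1 (medians 0.15, 0.12 and 0.15, lowest value 0.0813). At 24 h 0 of 8 did. Libraries of different tags were not compared, so these values cannot tell whether the tag marks a pairing. The main fit does not use the tag. As a replicate block the tag gave 3547 genes for radiation at 1 h (2285 without it) and 3421 and 2529 for dmPGE2 with and without radiation (2121 and 1589). It gave 95 for radiation under dmPGE2 (54), 942 for the interaction (426, with 9 pathway genes against 5) and 1352 for dmPGE2 at 24 h. The latter count, 3421, was 1507 with only the groups compared, 1123 without libraries 5 to 7, 854 without library 3 too, 346 in females and 953 in males; pathway genes went from 18 to 9, 7, 7, 6 and 6. The response difference went from 3641 to 2401 and 2318 without these libraries, its pathway genes from 18 to 11. The interaction gave 665 with only the groups compared and 878 with the 7 baseline columns of higher sample-sheet number; radiation at 1 h gave 1244 with the other 8. DESeq2 called 204 genes between the sexes (edgeR 13) and 32 for dmPGE2 by sex (0), and the 1 pathway gene that differed by sex, Klf10, became 0 without libraries 5 to 7. The cause of these shifts was not tested. Depth limits Id3 (0 to 66 reads per library) and Id1 at 1 h.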
